A study of Homo sapiens with 6 samples.

Results

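DEAD and DEAH box proteins are RNA helicases, named in part for the amino acids of a motif that couples ATP hydrolysis to the remodelling of RNA. DEAD box proteins mostly pry apart short duplexes where they bind, whereas DEAH box proteins move along a strand. In dividing human cells they act at nearly every step of RNA life, in the assembly and release of the spliceosome, the folding of ribosomal RNA in the nucleolus, export through the nuclear pore, translation and decay. The genes described here were those with a symbol starting with DDX or DHX and a digit that were read by a probe set listing 1 gene. DDX17 was left out. This gave 43 of the 11584 genes on the arrays, 27 of them named DDX and 16 named DHX. Each of the 43 had 1 probe set in the table that lists a single gene. DDX11, DDX19A, DDX19B and DDX27 were also on probe sets that list several symbols, which were left out. DHX9-AS1, an antisense RNA gene whose symbol follows the same pattern, was 1 of them, so 42 were helicase genes. Probe sets that list several symbols were the only ones for DDX39B and DDX47, which were not analysed here, and neither were DDX60, DHX58, DDX18 and DDX3Y, which are not in the table.

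The study asked how transcript levels respond to depletion of LIN28B, which binds many mRNAs and keeps let-7 microRNA precursors from being processed. All 6 arrays held RNA of the human embryonic kidney line HEK293 (T-REx Flp-In) with a stably integrated LIN28B transgene that carries a FLAG/HA tag and is switched on by doxycycline. The groups, of 2 arrays each, were cells transfected with siRNA against LIN28B with the transgene off, mock-transfected cells with the transgene induced, and mock-transfected cells with the transgene off. Induction used 250 ng/ml doxycycline for 15 to 20 h, per the labels' protocols, which tie these times to crosslinking. Whether replicates came from separate cultures is not stated there. The spread behind each p-value is that between arrays and may thus be technical. The arrays used here include no non-targeting siRNA, so transfection of an siRNA and loss of LIN28B cannot be told apart. In bulk RNA, fewer cells of a type and less RNA per cell cannot be told apart either.

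Values are log2 expression, and differences between groups are log2 differences, where 1 is a doubling. LIN28B itself read 7.51 and 7.53 on the siRNA arrays, 10.15 and 10.11 on the induced mock arrays and 10.02 and 9.85 on the mock arrays without induction. It fell by 2.42 on the log2 scale against the mock cells without induction (SE 0.0784, limma adjusted p = 5.02e-07). The HEK293 filament markers KRT18 and VIM were read on all arrays. Their means were 10.01 and 12.42 in the siRNA group and 9.98 and 12.61 in mock cells without induction. Of 5 such markers measured, 2 rose in siRNA cells, INA (0.73) and KRT8 (0.38), and 2 fell, NEFL (-0.59) and VIM (-0.18). That is 80% of the 5 called, beside 28% of all genes. Of 8 blood cell markers 2 were in the table and of 8 fibroblast markers 2, and none of these 4 was called. The fibroblast markers summed to 6.84 to 7.01 (log2 of the summed linear values) on the siRNA arrays and 6.67 to 6.84 on the 4 mock arrays. The blood markers summed to 6.23 to 6.26 on the siRNA arrays and 5.98 to 6.17 on the 4 mock arrays. The part of these markers in any result was not tested.

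In LIN28B-depleted cells, 9 of the 43 genes fell, 3 rose and 31 did not pass the test against mock cells without induction (limma, adjusted p under 0.05). DHX33, a nucleolar helicase that promotes transcription of ribosomal RNA genes, showed the largest change, to 48.6% of the mock level. DHX8, which frees finished mRNA from the spliceosome, DHX32 and DDX5 were the next largest called falls, and DHX38, which remodels the spliceosome for its second catalytic step, was the largest called rise. The 12 called genes are 27.9% of the 43. Over all 11584 genes 28% were called, so the share of helicase genes that changed was close to that of the arrays at large. By direction, 14.5% of all genes were lower and 13.5% higher. The median difference of the 43 genes was -0.09, with 32 below 0 and 11 above, beside a median of 0.01 over all genes, 5701 of which were below 0 and 5883 above. The median absolute difference was 0.163 for the 43 and 0.207 for all genes. An absolute difference of at least 0.4 was seen in 7 of the 43, and in 22.7% of all genes.

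**Figure D1:**
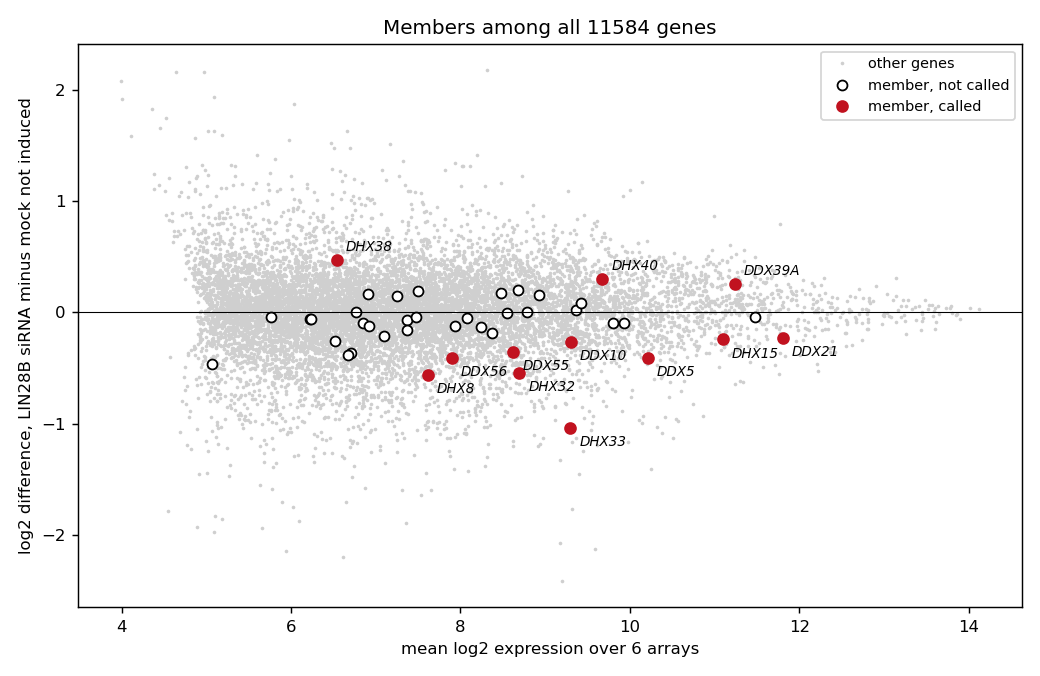
The x axis is the mean log2 expression over the 6 arrays and the y axis the log2 difference between LIN28B siRNA and mock cells without induction, with 11584 genes in grey. The 12 called members are red and the 31 others are open circles. DHX33 at -1.04 lies lowest of the members, and most lie within the band of the other genes.

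The size of the DHX33 fall is clear on the arrays themselves. DHX33 read 8.59 and 8.60 in siRNA cells, 9.61 and 9.72 in induced mock cells and 9.52 and 9.75 in mock cells without induction. Both siRNA arrays lay about 1 log2 unit under every mock array, and the mock groups overlapped. Against cells without induction it differed by -1.04 (SE 0.0873, limma adjusted p = 7.22e-05), a size that 1.93% of all genes exceeded. It was called under each of the 19 alternative settings tried, and was the only one of the 12 for which this held. Its range over them was -1.15 to -0.93. Of these settings, no filter repeated the main fit, and the mean of probe sets left the values of DHX33 unchanged.

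DHX8 read 7.14 and 7.32 in siRNA cells, 7.71 and 7.89 in induced mock cells and 7.82 and 7.78 in mock cells without induction. The siRNA arrays again lay below all 4 mock arrays. The difference was -0.57 (SE 0.109, limma adjusted p = 0.00419). DHX32, a DEAH box protein whose role is less well known, read 8.23 and 8.41 in siRNA cells, 8.99 and 8.81 in induced mock cells and 9.0 and 8.73 in mock cells without induction. It was lower on both siRNA arrays than on any mock array, with a difference of -0.54 (SE 0.112, limma adjusted p = 0.0059).

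DDX5, a coregulator of transcription that also acts in splicing and in the processing of primary microRNAs, was read with little spread. It had 9.92 and 9.97 in siRNA cells, 10.30 and 10.33 in induced mock cells and 10.36 and 10.36 in mock cells without induction. Its difference of -0.41 had an SE of 0.0561 (limma adjusted p = 0.000748), so the fall to 75.2% of the mock level was larger than the spread between arrays. DDX56, a nucleolar helicase of large ribosomal subunit assembly, had the same size of fall but not the same pattern. It read 7.81 and 7.59 in siRNA cells, 7.91 and 7.84 in induced mock cells and 8.11 and 8.11 in mock cells without induction. The induced mock cells thus lay between the other groups. The difference of the siRNA cells was -0.41 from cells without induction (SE 0.101, limma adjusted p = 0.0143) and -0.17 from induced cells (limma adjusted p = 0.235), where it did not pass.

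Smaller falls were seen in 4 more genes, 3 of which act on ribosomal RNA. DDX55, which acts in large subunit assembly, had 8.43 ± 0.08 in siRNA cells and 8.78 ± 0.14 in mock cells without induction (SD, n = 2 each), a difference of -0.35. DDX10, a nucleolar helicase of ribosomal RNA processing, had 9.10 ± 0.05 in siRNA cells and 9.37 ± 0.11 in mock cells without induction, a difference of -0.27. DDX21, which couples transcription and processing of ribosomal RNA, had 11.64 ± 0.02 in siRNA cells and 11.87 ± 0.001 in mock cells without induction, a difference of -0.23. The fourth was DHX15, which takes the spliceosome apart after splicing and also acts on pre-ribosomes. It had 10.94 ± 0.03 in siRNA cells and 11.19 ± 0.07 in mock cells without induction, a difference of -0.24. The largest limma adjusted p among these 4 was 0.0268, for DDX10.

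The 3 genes that rose did so by 0.25 to 0.47. DHX38 read 6.93 and 6.67 in siRNA cells, 6.55 and 6.42 in induced mock cells and 6.25 and 6.42 in mock cells without induction. The siRNA arrays lay above all mock arrays, with an SD of 0.18 between them. The difference was 0.47 from cells without induction (SE 0.138, limma adjusted p = 0.0309) and 0.32 from induced cells (limma adjusted p = 0.115). DHX40, a less studied DEAH box gene, had 9.86 ± 0.02 in siRNA cells and 9.56 ± 0.13 in mock cells without induction, a difference of 0.30 (limma adjusted p = 0.0163). DDX39A, which acts in mRNA export and splicing, had 11.42 ± 0.03 in siRNA cells and 11.17 ± 0.04 in mock cells without induction, a difference of 0.25 (limma adjusted p = 0.00364). DDX39A, DHX40 and DHX15 have probe sets ending in _s_at, which may also bind related transcripts. DDX39B, the close paralog of DDX39A, was not analysed here.

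**Figure D2:**
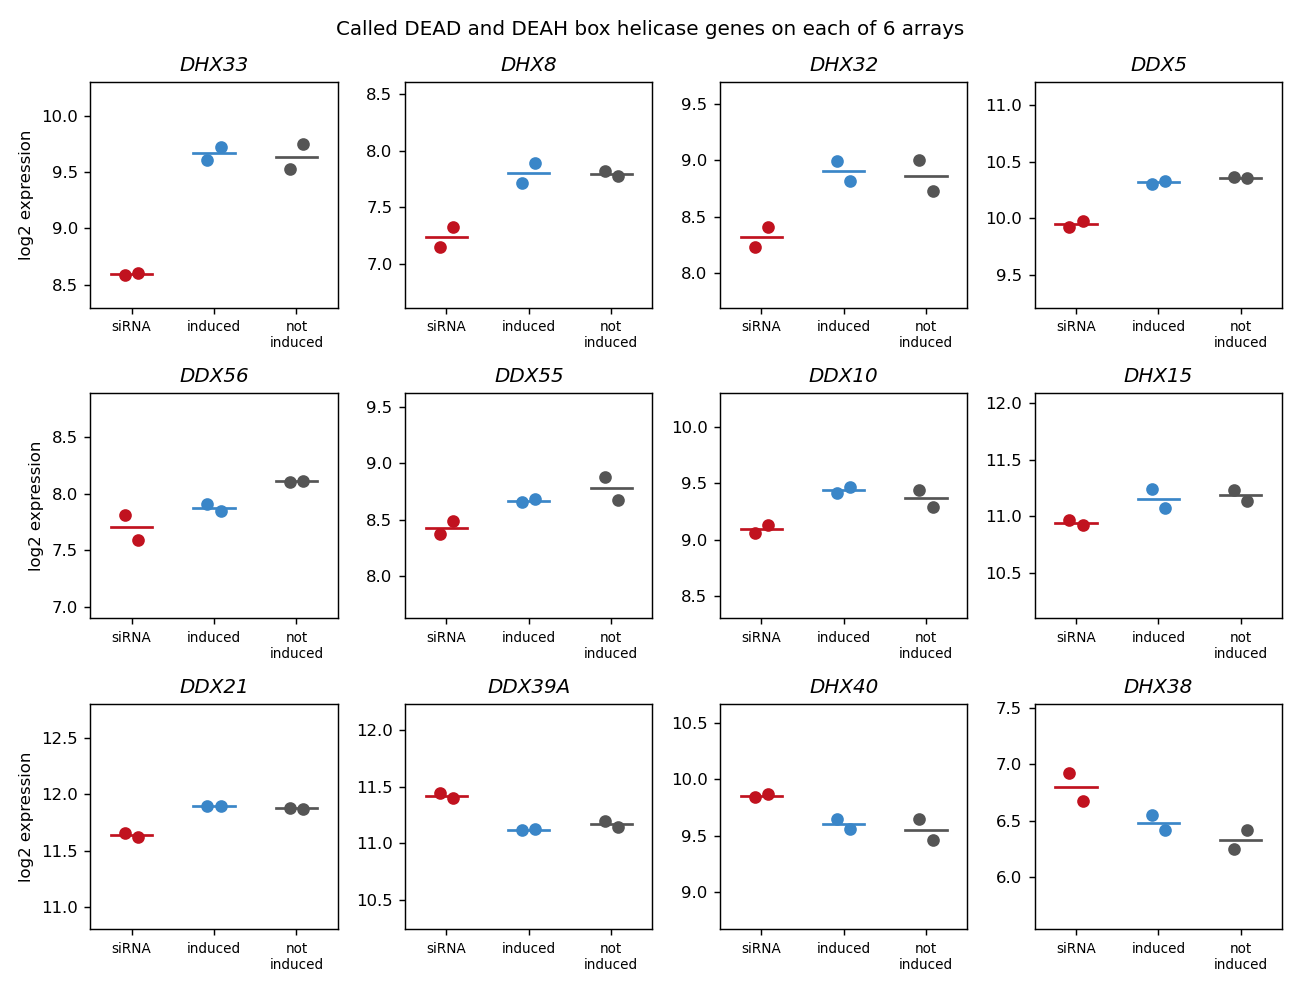
Each panel shows the log2 expression of 1 called gene on the y axis, with a span of 2 log2 units in every panel, and a point for each of 2 arrays in the siRNA, induced mock and not induced mock groups on the x axis. Lines mark group means. In all 12 panels both siRNA points lie outside the range of the 4 mock points, widest for DHX33, and in the DDX56 panel the induced points lie between the other groups.

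Both siRNA arrays lay outside the range of all 4 mock arrays for 25 of the 43 genes, 16 below and 9 above. Of all genes 53.1% did so, 26% below and 27.1% above. The 25 include all 12 called genes and 13 that were not called.

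To show the stretches next to which these genes are transcribed, bases before the annotated start were taken from RefSeq (GRCh38.p14). Of the 43 genes 40 matched an entry, with none for DHX33. Those shown belong to the 4 called falls of largest size with an entry and to the called rise of largest size. Each run holds the 150 bases before the start, 5′ to 3′ on the gene's strand. Capitals mark matches on either strand to the E-box CACGTG, the motif CCAAT, the GC box GGGCGG, the motif TATAAA and the core CCGGAAG of sites for ETS family factors. No match overlaps another in these runs.
DHX8 promoter, chr17:43483825-43483974, plus strand: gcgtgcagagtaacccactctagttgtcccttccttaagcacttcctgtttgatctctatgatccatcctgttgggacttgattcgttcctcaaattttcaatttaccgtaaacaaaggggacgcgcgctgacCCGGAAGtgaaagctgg
DHX32 promoter, chr10:125881293-125881442, minus strand: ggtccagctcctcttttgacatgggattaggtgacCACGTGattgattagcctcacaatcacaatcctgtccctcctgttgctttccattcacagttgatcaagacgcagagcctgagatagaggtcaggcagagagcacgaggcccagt
DDX5 promoter, chr17:64506639-64506788, minus strand: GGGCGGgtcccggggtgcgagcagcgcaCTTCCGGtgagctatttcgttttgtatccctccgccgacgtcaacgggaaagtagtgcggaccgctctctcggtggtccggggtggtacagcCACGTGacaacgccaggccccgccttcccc
DDX56 promoter, chr7:44573909-44574058, minus strand: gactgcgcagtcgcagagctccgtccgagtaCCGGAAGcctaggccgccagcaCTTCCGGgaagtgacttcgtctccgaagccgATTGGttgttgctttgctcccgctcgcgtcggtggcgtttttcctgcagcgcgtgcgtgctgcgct
DHX38 promoter, chr16:72093697-72093846, plus strand: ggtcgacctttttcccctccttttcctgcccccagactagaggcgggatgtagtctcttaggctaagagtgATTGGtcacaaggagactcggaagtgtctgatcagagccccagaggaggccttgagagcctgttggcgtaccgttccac

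In the runs shown, DHX8 holds 1 ETS core near its start, DDX5 holds 1 E-box, 1 ETS core and 1 GC box, and DDX56 holds 2 ETS cores and a CCAAT match. DHX32 holds an E-box and DHX38 a CCAAT match. In the 250 bases before the start, the ETS core was found in 14 of the 40 genes (35%), in 16.2% of 9476 genes on these arrays with an entry and in 8.82% of 27305 entries in all. It was in 4 of 8 called falls, 1 of 3 called rises and 9 of 29 genes that were not called. The E-box was found in 7 of the 40 (17.5%), in 9.14% of genes on the arrays and in 6.49% of all entries, and was in 2 of the 8 falls. The GC box was found in 65% of the 40 and 68.1% of genes on the arrays, CCAAT in 45% and 35.4%, and TATAAA in 2.5% and 4.9%. The median share of G and C was 63.2% for the 40 and 65.2% for genes on the arrays. These matches describe letters in a window and were not tested.

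By role, helicases of splicing and of ribosome production made up 26 of the 43 genes and 10 of the 12 called, and the other roles 17 genes and 2 called. With 28% of all genes called and no test of the difference between roles, nothing is read from this split. Of 12 helicases of splicing, 3 fell, 2 rose and 7 did not pass, with a median difference of -0.05. The falls were DHX8, DDX5 and DHX15 and the rises DHX38 and DDX39A. Within the sequence of catalytic steps, DHX16, which activates the spliceosome, had 0.15 and DDX23, which acts when the U5 particle joins, had 0.17, and neither passed. DHX35, found in late spliceosomes, read 6.40 and 6.51 in siRNA cells, 6.84 and 6.87 in induced mock cells and 6.95 and 6.69 in mock cells without induction. Its difference of -0.36 just missed the threshold (limma adjusted p = 0.0616) and was -0.40 from induced cells (limma adjusted p = 0.044). The others were DDX20 of the SMN complex (-0.13), DDX46 (-0.09), DDX41 (-0.01) and DDX42 (0.08).

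Of 14 helicases of ribosome production, 5 fell, 0 rose and 9 did not pass, with a median difference of -0.17. Over all genes 14.5% were lower and 13.5% higher, and whether the group differs from these was not tested. The falls were DHX33, DDX56, DDX55, DDX10 and DDX21. Among the 9 others, differences ran from -0.25 for DDX51 to 0.19 for DDX50. DDX50 is the paralog of DDX21. DDX51 had a difference of -0.48 from induced cells (limma adjusted p = 0.0484). Values of the remaining nucleolar helicases were -0.18 for DDX52, -0.16 for DDX49, -0.10 for DDX31, -0.10 for DDX24, -0.06 for DDX54, 0.00 for DHX37 and 0.02 for DDX27.

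None of the 7 helicases of export, translation and decay passed, beside 28% of all genes, and whether these shares differ was not tested. DDX3X, which helps ribosomes start on structured leaders, had 0.20 (95% interval 0.02 to 0.38, limma adjusted p = 0.0983), and 0.29 from induced cells (limma adjusted p = 0.0244). DDX6, a decapping activator that also takes part in silencing by microRNAs, had 0.00 (95% interval -0.28 to 0.28). DDX19B, which releases mRNA at the nuclear pore, had the largest difference of the 31 members that did not pass. It read 4.61 and 5.09 in siRNA cells, 5.29 and 4.81 in induced mock cells and 5.47 and 5.15 in mock cells without induction. Both siRNA arrays lay below both arrays without induction, while the induced arrays overlapped the other groups. The difference of -0.46 from cells without induction had a 95% interval of -0.99 to 0.06. It was also the member of lowest mean level, in the lowest part of the scale. DDX19A had -0.07, DHX34 of nonsense-mediated decay -0.06, DHX36, which unwinds G-quadruplexes, -0.05 and DHX29, which helps small ribosomal subunits scan, 0.16.

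The mitochondrial helicases DDX28 and DHX30 had 0.14 and -0.13. DHX9, which unwinds long RNA duplexes, read 6.70 and 6.10 in siRNA cells, 6.76 and 6.88 in induced mock cells and 6.84 and 6.73 in mock cells without induction. The siRNA arrays stood apart from each other, with an SD of 0.42, and replicate 1 lay just under the mock arrays. The difference was -0.38 (SE 0.179, limma adjusted p = 0.144). It was -0.68 without replicate 1 of the siRNA group, a value that rests on replicate 2 alone. DHX9-AS1 had -0.04. DDX1 of the tRNA ligase complex had -0.04 (95% interval -0.17 to 0.08). Among the less studied genes and those acting on DNA, DDX11 had -0.21, DDX59 -0.13 and DHX57 -0.04.

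**Figure D3:**
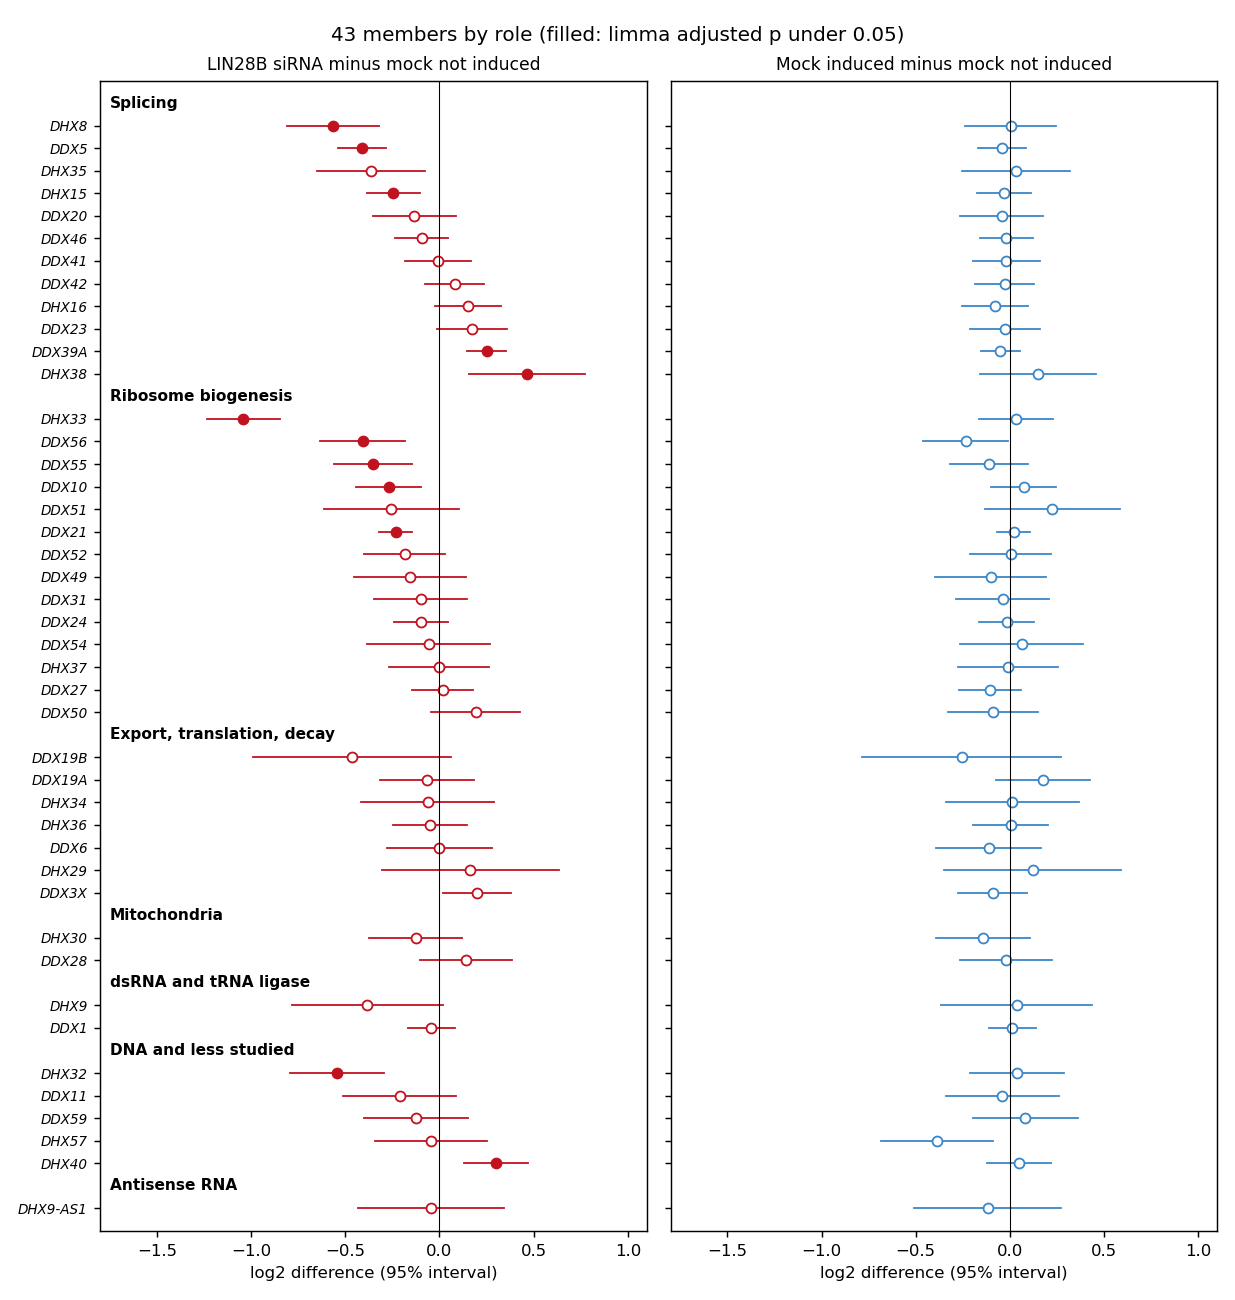
Log2 differences on the x axis with 95% intervals from limma are given for the 43 genes, grouped by role down the page. The left panel is LIN28B siRNA minus mock not induced and the right panel induced minus not induced mock cells. Filled points passed at an adjusted p under 0.05. In the left panel 9 filled points lie below 0 and 3 above, and the right panel has 0 filled points.

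By family name, 5 of the 27 DDX genes fell and 1 rose, and 4 of the 15 DHX helicases fell and 2 rose. That is 22.2% of DDX and 40% of DHX genes called, beside the 28% of all genes. Whether these shares differ was not tested.

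RNA helicases under other names, some from another superfamily, did not pass. Of 19 listed, 12 were in the table and 0 were called, beside 28% of all genes, with a median difference of -0.03. Whether these shares differ was not tested. RIGI, a sensor of viral RNA, had 0.58 (limma adjusted p = 0.0541), and DICER1, which cuts microRNA precursors, had -0.16 (limma adjusted p = 0.267). At an unadjusted p under 0.05, 1 of the 12 was counted, RIGI, and the share of all genes at that threshold is not given here. Differences of the other 10 lay between -0.13 and 0.12, among them EIF4A3 of the exon junction complex at -0.04 and SNRNP200, which unwinds the U4 and U6 snRNAs, at -0.07. RIGI is induced by interferon, as are several genes that rose here. Of 23 interferon response genes in the table, 7 rose, 1 fell and 15 did not pass. That is 34.8% called, beside 28% of all genes, where 13.5% were higher. The summed level of the 23 (log2 of the summed linear values) was 12.09 to 12.11 on the siRNA arrays and 12.02 to 12.06 on the 4 mock arrays. IFI27 rose by 1.23, SAMD9 by 0.88 and IFI35 by 0.79, and ADAR was the 1 that fell, by 0.24. IFI27 and SAMD9 were low on the scale, with means of 4.50 and 5.18 in mock cells without induction. RIGI had 5.52 there, from a probe set ending in _x_at. The part of the interferon response in the helicase values was not tested.

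Lists of helicase cofactors and partners had 21.7%, 30.4% and 23.1% of their measured genes called, near the 28% of all genes. Of 23 genes in a list of G-patch proteins, which activate DEAH box helicases, 4 fell and 1 rose, with a median of -0.02. The list also holds NSRP1 and GTF2H5, which are not known as G-patch proteins. GPKOW, a partner of DHX16, had 9.40 ± 0.05 in siRNA cells and 8.56 ± 0.01 in mock cells without induction (SD, n = 2 each). It rose by 0.84 (limma adjusted p = 0.000119). NSRP1 and GPATCH11 fell by 0.60 and 0.50. Of 23 genes in a list of DEAD box helicase cofactors, 4 fell and 3 rose, with a median of 0.02. The list also holds proteins of cap complexes, EIF4E, NCBP1 and ZC3H18, and not every gene in it is a known DEAD box cofactor. ZC3H18, a cap complex adaptor, fell by 1.13, NOM1, a nucleolar partner of EIF4A3, by 0.79, and PAIP1, which binds poly(A)-binding protein, rose by 0.51. Of 13 genes of the exon junction complex and mRNA export, 2 fell and 1 rose, with a median of -0.02. PNN fell by 0.52 and SRRM1 by 0.36, and THOC6 of the TREX complex rose by 0.32.

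**Figure D4:**
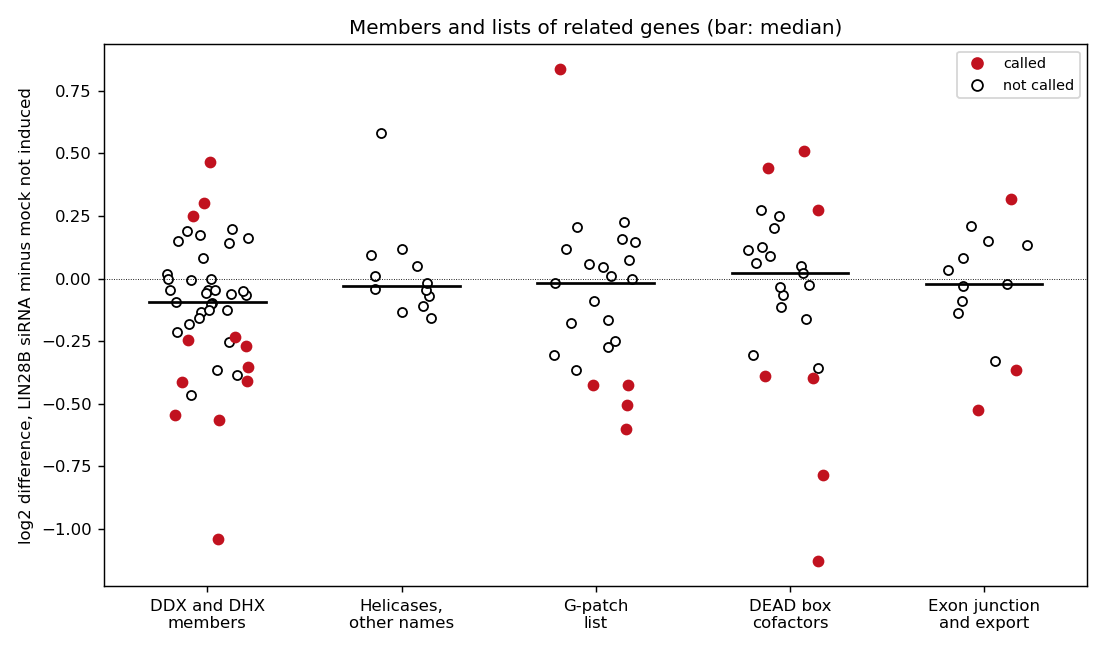
The y axis is the log2 difference between LIN28B siRNA and mock cells without induction, and each point is a gene of the list named on the x axis, with red for called genes and a bar for the list's median. Medians lie between -0.09 for the 43 members and 0.02 for the DEAD box cofactors, and the helicases under other names have 0 red points.

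The second comparison asked what induction of tagged LIN28B changes in mock-transfected cells. LIN28B itself was only 0.19 higher with induction (SE 0.0784, limma adjusted p = 0.999) and did not pass. Its probe set thus does not show how far the transgene was induced, which limits what can be read from this comparison. None of the 43 genes passed by limma, where 0% of all genes passed, and 2 of the 43 had an unadjusted p under 0.05, beside 2.97% of all genes. DHX57, a less studied DEAH box gene, was 1 of these. It read 7.27 and 7.20 in induced mock cells and 7.67 and 7.57 in mock cells without induction, beside 7.77 and 7.38 in siRNA cells, so the induced arrays lay below the 4 others. Its difference was -0.39 (SE 0.132, limma adjusted p = 0.999). DDX56 was the other, with -0.23, and the next smallest p belonged to DDX19A, with 0.17 (limma adjusted p = 0.999 for each). The median difference over the 43 was -0.02, and it ran from -0.39 to 0.23. Arrays of the same group differed little for these genes, with a median SD of 0.071 in siRNA cells, 0.050 in induced mock cells and 0.080 in mock cells without induction, against 0.073, 0.069 and 0.101 over all genes.

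Several calls depended on single arrays. Calls over all genes also became fewer when either siRNA array was left out, so this loss was not confined to these genes. Of the 12 called genes, 7 lost the call when some single array of the siRNA or not induced group was left out, the remaining array being given the spread of the others. Without siRNA replicate 1 these were DDX10 (-0.24), DDX55 (-0.30), DHX15 (-0.27), DHX32 (-0.46), DHX38 (0.34) and DHX40 (0.32). Without siRNA replicate 2 they were DDX10 (-0.30), DDX56 (-0.30), DHX15 (-0.22) and DHX40 (0.29). Without not induced replicate 1 they were DDX10 (-0.19), DDX55 (-0.25), DHX15 (-0.20) and DHX38 (0.38), and without replicate 2 DHX40 (0.21). Limma adjusted p in these cases lay between 0.0591 and 0.212. DHX33, DHX8, DDX5, DDX21 and DDX39A kept their calls in all of them. Against induced cells, DDX55 had -0.24 (limma adjusted p = 0.0785).

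**Figure D5:**
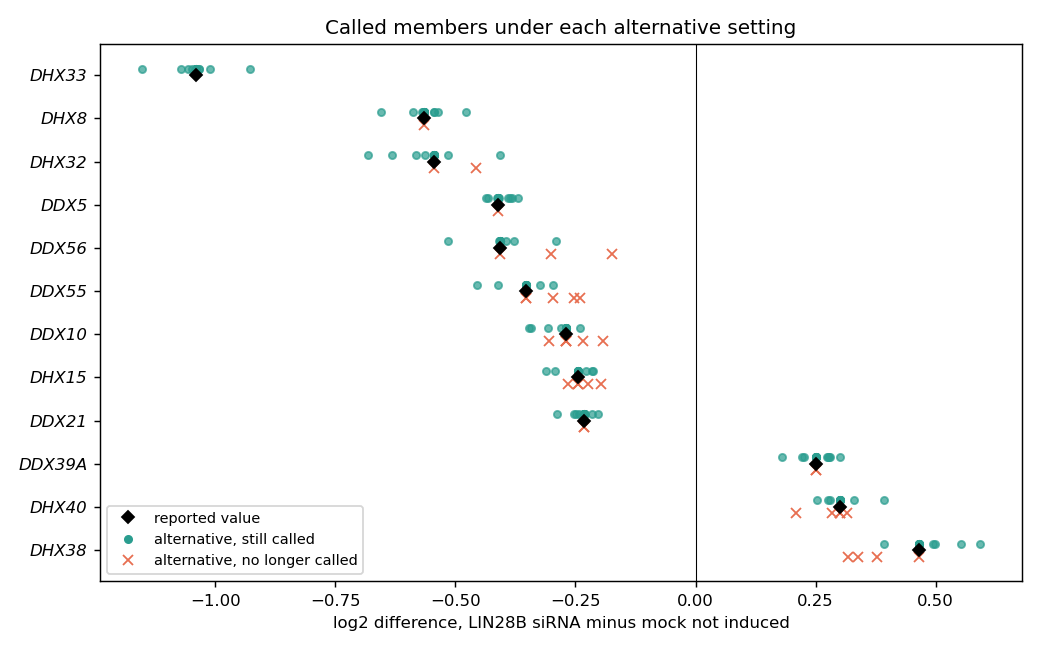
The x axis is the log2 difference between LIN28B siRNA and mock cells without induction for the 12 called genes, with the reported value as a black diamond, alternatives that kept the call as circles and those that lost it as crosses. No alternative moves a gene across 0, and DHX33 has no cross.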

How the data were processed

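Total RNA was hybridized to 6 arrays (Affymetrix Human Genome U133 Plus 2.0). Each probe set has 1 log2 value an array, as deposited by the authors. The submitters' processing notes name affy and GCRMA, whose versions are not given in the sources used here. The file does not state the log base, and 2 was assumed since GCRMA returns it. The table holds 13008 probe sets, part of the array, chosen by a rule not given in the sources used here. All but 1 lay above 5 on at least 2 arrays, so genes low on every array were not analysed here. Values ran from 2.59 to 14.3, with array medians of 7.126 to 7.177. The number of arrays limits precision.

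The platform annotation's symbols were updated through gene identifiers (RefSeq, GRCh38.p14). Of the probe sets, 11719 had 1 symbol, 609 several and 680 none listed. The probe set of highest mean over the arrays stood for a gene. All 43 members matched the RefSeq table, and 18 were read by probe sets ending in _s_at or _x_at, which may bind related transcripts too. A filter of above 4 on at least 2 arrays removed 0 genes.

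The test was limma 3.58.1 under R 4.3.3 (lmFit, then eBayes with a trend on intensity). All arrays entered 1 model with 3 groups, giving 3 residual and 6.73 prior degrees of freedom. Tests were two-sided, with Benjamini-Hochberg adjustment over 11584 genes and no fold minimum. The script was tested on simulated data, where it recovered 10% of log2 changes of 0.3, 90.5% of 0.5 and 100% of 1. Changes near 0.3 were thus mostly missed there. The simulation changed few of the genes and gave each the same spread, an SD of 0.110. On these arrays 28% of genes were called and the spread differed between genes. The simulated rates therefore do not carry over to the changes reported here. Every called member is named, with the 3 uncalled ones of largest change given per array. Other lists give up to 3 called genes of largest change, or 2 where none was called. Members and lists were chosen with earlier results of these data known. Replicate numbers were checked for pairing: deviations of same-numbered arrays correlated at -0.0568 (siRNA, not induced), 0.181 (induced, not induced) and 0.0155 (siRNA, induced), so no block was used. Alternatives covered scaling, filter, floor, variance model, probe sets, fold minimum, mock group and left-out arrays.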

Additional observations from a re-analysis of the deposited data

How the results depend on the processing

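The count of 12 called members, 3 higher and 9 lower, stayed within 1.5 times of itself under several settings. These were array centring, quantile normalization, the stricter filter, a floor of 5, only the 4 arrays compared (11) and all 4 mock arrays as the reference (14). In the last 2 settings 24.1% and 34.6% of all genes were called. Running no filter repeated the main fit, since the filter had removed 0 genes. The mean of probe sets left member values unchanged, since each member had 1 single-gene probe set. The count was also 12 with induced arrays as the reference, a setting chosen after seeing the data, but not for the same genes. There 9 of the 12 kept their calls and DDX55, DDX56 and DHX38 lost them, while DDX3X, DDX51 and DHX35 gained one. With the replicate number as a block the count was 12 too, and the block changed no call among the 12. The variance model and the fold minimum moved it. Without an intensity trend 6 of the 43 were called, 1 higher and 5 lower, beside 22.3% of all genes, and the cause was not tested. There DDX10, DDX21, DDX39A, DDX55, DHX15 and DHX40 lost their calls, with limma adjusted p between 0.053 and 0.114. Tested against a 1.2-fold change, 1 of the 43 was called, DHX33, with 0 higher and 1 lower, beside 6.94% of all genes. Without _s_at and _x_at probe sets 25 members remained in the test and 9 were called, 1 higher and 8 lower, beside 27.8% of all genes. DDX39A, DHX40 and DHX15, read by _s_at probe sets, were no longer in the test, and the other 9 called members kept their calls. Leaving out each array in turn gave 7 to 12 called, with 1 to 3 higher and 6 to 10 lower, and the count was 7 without siRNA replicate 1. Fewer of all genes were called as well when either siRNA array was left out. DDX10 lost its call with only the 4 arrays compared (limma adjusted p = 0.0501). Some members gained one. These were DHX9 without siRNA replicate 1 (-0.68), DHX29 without not induced replicate 1 (0.53) and DHX35 without not induced replicate 2 (-0.49). With all mock arrays as the reference, DHX35 (-0.38) and DDX3X (0.24) gained one. No called member changed sign under the settings run, and 0 members were called for induction in the settings run for that comparison, which leave out both changes of reference.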
